A study of Mus musculus with 3 samples.

Results

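Natural killer (NK) cells were selected on measured UMIs (unique molecular identifiers, each standing for 1 captured RNA molecule) in 3 single-cell RNA sequencing libraries of injured mouse tibialis anterior muscle, as the cells with at least 2 UMIs of Ncr1 and Klrb1c together. Ncr1 encodes the activating receptor NKp46 and Klrb1c the NK1.1 antigen. A chosen cell also had no UMI of the T cell receptor subunits Cd3d, Cd3e and Cd3g, of the macrophage receptor Csf1r, of the mesenchymal receptor Pdgfra or of the dendritic cell lectin Cd209a. After cells with under 500 genes or with 10% or more mitochondrial UMIs were left out, 121 of 35247 kept cells met this rule. The study asked how aged muscle, and aged muscle given recombinant Meteorin-like protein (rMETRNL), differs from young muscle during repair. Its groups were young mice given PBS, old mice given PBS and old mice given rMETRNL, all damaged with BaCl2 and all collected 4 days later, so that no library came from uninjured muscle. Each group was 1 library, which the study's methods describe as cells pooled from triplicate samples, so that differences between mice cannot be measured here and no test was made between groups.

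NK cells are innate lymphocytes that kill target cells without a rearranged antigen receptor. They read a balance of activating and inhibitory surface receptors, many of them encoded by the Klr gene cluster, and kill by releasing granules that hold perforin and granzymes. They also secrete interferon gamma and chemokines that act on macrophages, dendritic cells and T cells, and in damaged muscle they arrive with the other blood leukocytes. T cells share much of this killing machinery but express a T cell receptor with the CD3 complex, which makes them the closest comparison. The 295 comparison T cells had at least 2 UMIs of the 3 Cd3 genes together, none of Ncr1 or Klrb1c, and none of Csf1r, Pdgfra or Cd209a.

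The rule left out a good part of the candidate cells. Of 187 kept cells with at least 2 UMIs of Ncr1 and Klrb1c, 66 were left out for a UMI of another gene of the rule, most often Csf1r (44 cells) or a Cd3 gene (21 cells). Among the 121 NK cells, 81 held UMIs of both genes, 19 of Ncr1 alone and 21 of Klrb1c alone, and the summed count ran from 2 to 24. The level of Ncr1, in CPM (UMIs of the gene per 1000000 UMIs of the summed NK cells), was 263.2, 164.8 and 205.3 in the order young PBS, old PBS, old rMETRNL, and that of Klrb1c was 261.9, 131.3 and 249.2. These values follow from the choice of cells and carry no test. Just inside the threshold, the cells with a sum of exactly 2 numbered 15, 7 and 7 in young PBS, old PBS and old rMETRNL, with Gzma (granzyme A) at 3981, 6958 and 2353 CPM. Just outside it, the cells with a sum of 1 numbered 21, 8 and 15, with Gzma at 3400, 801.0 and 1282 CPM.

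The libraries held 12168 to 14012 barcodes and 179295668 to 228966697 UMIs. The median NK cell had 8699 UMIs for young PBS, 13769.5 for old PBS and 8855 for old rMETRNL, against 4130, 5425.5 and 4702 for T cells. NK cells were thus deeper than T cells in each library, and those of old PBS were the deepest. In sum the NK cells held 775080, 388307 and 272824 UMIs. The libraries shared 58 to 80 cell barcodes pairwise, and no barcode was an NK cell in more than 1 library. Scrublet, a doublet caller, called no cell at its own threshold, and its highest scores, taken at the rate usual for this number of barcodes, marked 2 NK cells of young PBS, 1 of old PBS and none of old rMETRNL. After the values were seen, 8 NK cells were found to hold many UMIs of another cell type, 5 from young PBS, 3 from old PBS and 0 from old rMETRNL. Of these, 4 had at least 50 UMIs of dendritic markers, 2 at least 20 of endothelial markers and 3 at least 100 of macrophage markers, and 1 cell met 2 of these limits. Results were also computed without these cells and without 6 T cells past the same limits, and values that moved are given with the results.

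NK cells made up a larger share of the young library than of either old library. They were 71 of 11403 kept cells in young PBS, a share of 0.623% (95% exact binomial interval 0.487 to 0.785). In old PBS they were 24 of 11058 cells, 0.217% (0.139 to 0.323), and in old rMETRNL 26 of 12786 cells, 0.203% (0.133 to 0.298). The old PBS share was 0.349 times the young PBS share (95% exact interval 0.210 to 0.561), and the old rMETRNL share was 0.937 times that of old PBS (0.517 to 1.70). The young share thus lay above both old shares beyond counting error, and the 2 old shares were not distinguishable at this depth. All intervals here cover counting error only, not differences between mice or dissociations. As an alternative, kept cells with at least 2000 UMIs were thinned to that depth before the rule was applied, and shallower cells were left out. NK cells were then 32 of 11114, 3 of 10139 and 13 of 11917 cells. The ratios were 0.103 (0.0201 to 0.329) for age and 3.69 (1.01 to 20.2) for treatment, the latter resting on 3 cells of old PBS.

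T cells followed another order. Their shares were 0.772% (88 cells) for young PBS, 1.23% (136 cells) for old PBS and 0.555% (71 cells) for old rMETRNL. The old PBS share of T cells was 1.59 times that of young PBS (1.21 to 2.11), and the old rMETRNL share was 0.452 times that of old PBS (0.334 to 0.606). Within NK and T cells together, NK cells were 44.7% of the young PBS library (36.8 to 52.7), 15% of old PBS (9.85 to 21.5) and 26.8% of old rMETRNL (18.3 to 36.8). The composition of the T cells differed too, with a Cd8a or Cd8b1 UMI in 24 of 88, 81 of 136 and 32 of 71 cells, so that each comparison of NK with T cells sets NK cells beside a different mixture in each library.

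**Figure D1:**
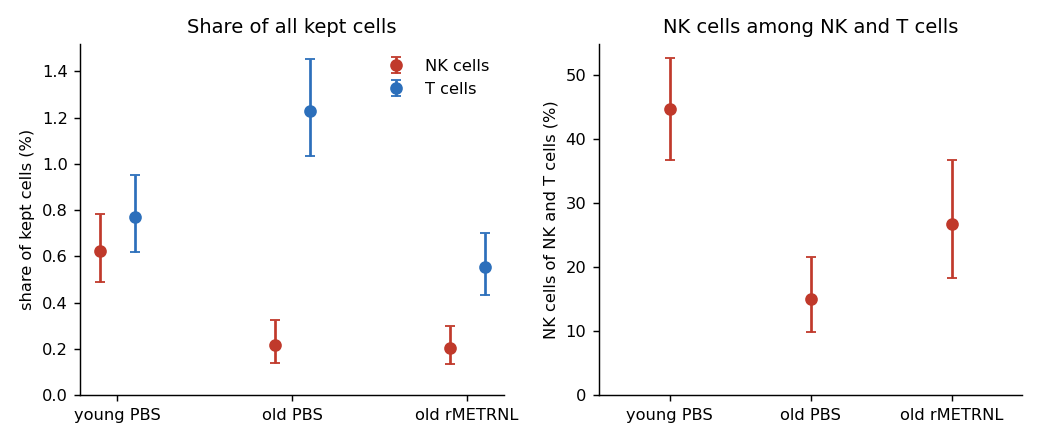
The left panel plots NK and T cells as a percentage of all kept cells in each library, and the right panel NK cells as a percentage of NK and T cells together. Points are shares and bars 95% exact binomial intervals; NK cells are highest in young PBS (0.623%), T cells in old PBS (1.23%).

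The chosen cells carried the markers of NK cells that the rule did not use. A UMI of Nkg7, a cytotoxic granule membrane protein, was found in 120 of 121 NK cells, 99.2%, against 60.3% of T cells. Gzma was found in 107 of 121 NK cells, 88.4%, against 11.2% of T cells. After thinning of each cell to 2000 UMIs the Gzma shares were 84.2% and 9.12%. For a background of free RNA, 3868 Pdgfra-positive stromal cells with median depths of 23176 to 26498 UMIs were used. They had at least 2 Pdgfra UMIs and none of Csf1r, the Cd3 genes, Ncr1 or Klrb1c. Cells holding RNA of those genes were thus left out, so that the background shares can be too low. Of these cells, 0.233% held an Nkg7 UMI and 0.595% a Gzma UMI. The lectin receptor subunit Klrd1 (CD94) was found in 92.6% of NK cells and 27.1% of T cells, Klrk1 (NKG2D) in 91.7% and 41.4%, and perforin (Prf1) in 76.9% and 16.9%. The corresponding background shares were 0.724%, 0.879% and 0.0259%. Il2rb, the beta chain of the receptors for interleukins 2 and 15, was found in 96.7% of NK cells, 72.9% of T cells and 0.801% of background cells. The T-box factors Eomes and Tbx21, which direct NK cell development, were found in 65.3% and 52.9% of NK cells and in 22.7% and 21.7% of T cells, with 0.336% of background cells for each gene. After thinning, Eomes was found in 31.7% of NK cells and 13% of T cells, and Tbx21 in 15.8% and 8.77%.

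Of the T cell markers, Cd8a was found in 0 of 121 NK cells (after thinning 0 of 120, with an exact upper limit of 3.03% on cells with a UMI at this depth, which does not limit the share that expresses the gene) and Cd4 in 1 cell. Trac, the constant region of the T cell receptor alpha chain, was found in 12.4% of NK cells before thinning and 1.67% after it, against 72.5% and 48.8% of T cells and 2.40% and 0.156% of background cells. Trbc2, the beta chain constant region, was found in 48.8% of NK cells, against 87.1% of T cells and 0.284% of background cells. Lat, an adaptor of the T cell receptor, was found in 18.2% of NK cells and 72.2% of T cells. Each of the 8 NK markers outside the rule was thus found in a larger share of NK cells than of T or background cells, and part of the NK cells also held T cell receptor beta chain RNA.

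To find what sets NK cells apart, UMIs were summed per library over NK cells and over T cells, and the 6 sums were compared with edgeR's quasi-likelihood test with the library as a block. The 3 libraries are 3 different groups, so that the spread the test uses includes any difference between young, old and treated muscle. Of 5326 genes tested, 411 were higher in NK cells, which is 7.72% of them, and 535 were lower, which is 10%, at a Benjamini-Hochberg adjusted p under 0.05. The 8 genes of the rule were not tested. The median log2 difference over all tested genes was -0.00114. DESeq2 on the same sums called 126 higher and 203 lower, and with T cells limited to those with a Cd8a or Cd8b1 UMI edgeR called 112 higher and 159 lower. Without the old PBS library the counts were 124 and 216, without young PBS 164 and 291, and without old rMETRNL 477 and 645. Of 154 called genes that belong to the lists or were named for size, 47 were no longer called with DESeq2 and 50 without the old PBS library. Without young PBS 38 of 150 were lost, and against T cells with a Cd8 UMI 43 of 139 were lost and 6 turned direction. Without the cells holding another type 501 genes were higher and 602 lower, 1 of 150 named calls was lost (Ccr2), and 18 named genes that had not passed did. Of these, 5 (Apoe, Cd74, Ctsb, Lyz2 and Spp1) are markers by which those cells were left out, so that their calls follow in part from that choice, and the others included Fasl, Srgn, Skap1, Mcm5, Cenpe, Cenpf and Ube2c.

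Activating receptors and their adaptors were mostly higher in NK cells. Of the 17 tested, 12 were higher, 3 were lower and 2 (Cd226 and Slamf7) did not pass, with a median log2 difference of 1.59. Tyrobp (DAP12), the signalling adaptor of many NK receptors, stood at 1555, 991.5 and 1001 CPM in NK cells of young PBS, old PBS and old rMETRNL, against 89.9, 68.9 and 140.7 CPM in T cells. Every NK value lay above every T value, and the fitted difference was 12.3-fold (log2 3.63 ± 0.22 SE, adjusted p = 2.01e-06). Fcer1g, the Fc receptor gamma chain that pairs with NKp46 and CD16, stood at 1362, 1257 and 960.3 CPM in NK cells and 131.8, 59.7 and 159.5 CPM in T cells (log2 3.48 ± 0.27, adjusted p = 7.23e-06). Both adaptors thus differed by more than 10-fold, and neither sum overlapped between the classes.

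NKG2D, which recognises stress ligands, is also carried by activated CD8 T cells, and its gene Klrk1 differed less. It stood at 429.6, 561.4 and 439.8 CPM in NK cells and 147.8, 266.5 and 267.3 CPM in T cells (log2 1.14 ± 0.17, adjusted p = 0.00103). Klrb1b, grouped here although its product is known as an inhibitory receptor for the Clec2d protein, stood at 134.2, 257.5 and 172.3 CPM in NK cells and at 0, 7.20 and 2.35 CPM in T cells (log2 5.62 ± 0.35, adjusted p = 2.16e-06). Cd244a (2B4), Klrb1f, Sh2d1b1, Cd7, Cd160, Klrc2 (NKG2C) and Crtam were higher as well, by log2 differences of 1.14 to 4.75. The 3 lower members were Cd2, an adhesion receptor, Hcst (DAP10), the adaptor of NKG2D, and Cd247, the zeta chain shared by the T cell receptor and NKp46. Hcst stood at 325.1, 301.3 and 208.9 CPM in NK cells and 527.2, 579.3 and 452.6 CPM in T cells (log2 -0.88 ± 0.15, adjusted p = 0.00227).

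Inhibitory receptors followed the same direction. Of 13 tested genes listed as inhibitory receptors, 10 were higher in NK cells, 1 was lower and 2 (Klrg1 and Cd96) did not pass. Their median log2 difference was 2.98. The list is a grouping made for counting, and not each member is known to inhibit. Klrd1, which pairs with NKG2A or NKG2C to read the non-classical MHC molecule Qa-1, stood at 432.2, 530.5 and 395.9 CPM in NK cells and 91.9, 122.5 and 91.5 CPM in T cells (log2 2.18 ± 0.16, adjusted p = 5.75e-06). Klre1 stood at 456.7, 461.0 and 483.8 CPM in NK cells and 35.9, 70.0 and 61.0 CPM in T cells (log2 3.09 ± 0.20, adjusted p = 2.88e-06). NK levels of Klre1 were close to one another across the 3 libraries. Klrc1 (NKG2A) differed by log2 0.68 ± 0.20 (adjusted p = 0.0370), and against T cells with a Cd8 UMI its difference was -0.033. The lower member was Pdcd1 (PD-1), a checkpoint receptor, at 0, 18 and 14.7 CPM in NK cells and 89.9, 151.3 and 147.7 CPM in T cells (log2 -3.84 ± 0.46, adjusted p = 0.000199).

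The Ly49 receptors, encoded by the Klra genes, mostly bind classical MHC class I and are expressed in varied combinations from cell to cell. Klra4 (Ly49D), grouped with the inhibitory receptors although it is known to activate, stood at 277.4, 141.6 and 274.9 CPM in NK cells and at 0 UMIs in the T cells of every library, at least 152-fold higher in NK cells with a floor of 3 counts over all T cells. Klra8 (Ly49H), an activating member, stood at 190.9, 182.8 and 157.6 CPM and also at 0 in T cells, at least 115-fold higher. Klra genes are near-identical copies, and reads can be assigned to the wrong copy, so that values of single members are uncertain. Taken as a family of 11 measured genes, the median NK cell held UMIs of 2 of them in each library, with a range of 0 to 6. At least 1 Klra gene was found in 80.3%, 83.3% and 76.9% of NK cells and in 6.82%, 13.2% and 7.04% of T cells. After thinning these shares were 71.4%, 75.0% and 69.2% in NK cells and 4.76%, 7.35% and 4.62% in T cells.

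Klr genes higher in NK cells lay side by side. On chromosome 6 between 128609227 and 130386874 (GRCm38), the span of the Klrb1, Klrd1, Klrk1, Klrc, Klre1, Klri2 and Klra genes, 19 genes were tested. All 15 Klr genes among them were higher in NK cells (Klra1, Klra3, Klra4, Klra7, Klra8, Klra9, Klrb1a, Klrb1b, Klrb1f, Klrc1, Klrc2, Klrd1, Klre1, Klri2 and Klrk1). Cd69, an activation antigen encoded in the same span, was lower, and Clec2d, Clec2i and Gabarapl1 did not pass. The lists that named most of these Klr genes were drawn up as NK receptors, so that their common direction is not independent of that choice.

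Granule genes were split. Of 18 tested, 8 were higher in NK cells, 2 were lower and 8 did not pass, with a median log2 difference of 0.80. Gzma stood at 5007 CPM in young PBS (95% exact Poisson interval 4851 to 5167), 5194 for old PBS (4970 to 5426) and 2668 for old rMETRNL (2478 to 2870), against 107.8, 134.8 and 497.1 CPM in T cells. The fitted difference was 21.1-fold (log2 4.40 ± 0.48, adjusted p = 0.000109), with no overlap between the classes. Prf1, which forms the pore through which granzymes enter a target, stood at 388.3, 216.3 and 252.9 CPM in NK cells and 35.9, 42.2 and 32.8 CPM in T cells (log2 2.88 ± 0.22, adjusted p = 7.16e-06).

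Granzyme B, which triggers apoptosis in the target, differed less than granzyme A. Gzmb stood at 1322, 914.2 and 1565 CPM in NK cells and 303.5, 399.3 and 766.8 CPM in T cells (log2 1.47 ± 0.19, adjusted p = 0.000380). Serpinb9 and Serpinb6b, inhibitors that protect the killer cell from its own granule proteases, were higher by log2 2.01 ± 0.22 and 2.49 ± 0.18. Nkg7 and Ctsw (cathepsin W) were higher by 0.85 and 0.87, and Gzmc by 5 with 54.2, 77.3 and 73.3 CPM in NK cells. Granzyme K, typical of memory CD8 T cells, went the other way: Gzmk stood at 10.3, 10.3 and 0 CPM in NK cells and 53.9, 97.8 and 32.8 CPM in T cells (log2 -2.91 ± 0.40, adjusted p = 0.000627). Stx11, a syntaxin needed for granule release, was lower too, while the granule proteoglycan Srgn, the release factor Rab27a and the death ligands Fasl and Tnfsf10 did not pass.

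**Figure D2:**
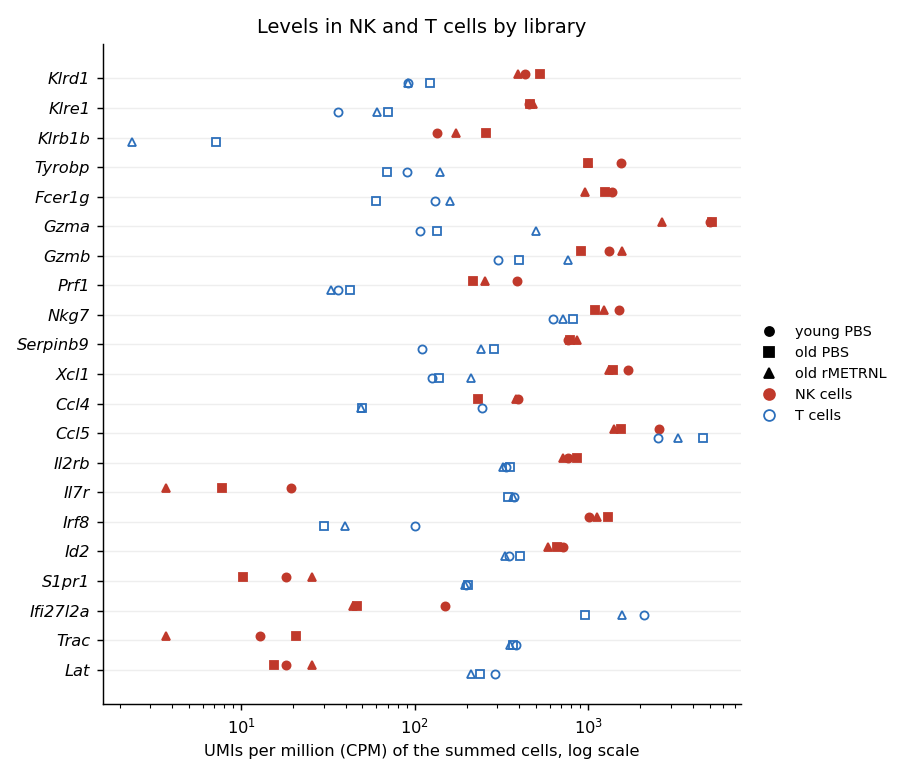
Levels of 21 genes in CPM of the summed cells on a log axis, filled symbols for NK cells and open symbols for T cells, with 1 symbol shape per library. Klrd1, Tyrobp, Gzma, Prf1 and Xcl1 lie higher in NK cells of each library and Il7r, S1pr1, Trac and Lat lower; Klrb1b, at 0 CPM in T cells of young PBS, has no symbol there.

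Of the genes higher in NK cells, 7 had a promoter with the letters of a T-box motif and 6 with those of a RUNX motif, the 2 factor families searched. The 4 promoters printed here are those of the genes among them that belong to the gene lists used, and the other genes were Dkc1, Hirip3, Hsp90b1, Pglyrp1, Psmd13 and Samd3 for the T-box motif and Cdk4, Lcmt1 and Prpf19 for the RUNX motif. Each is a RefSeq window of GRCm38.p6 from 250 bases before to 50 after the start of the gene, written 5′ to 3′ on the strand of the gene, with the motif match in capitals. Nkg7 (chr7:43436888-43437187, plus strand) holds AGGTGTGA, the T-box motif, beginning 14 bases before the start. Gzmb (chr14:56262285-56262584, minus strand) holds TGTGGTTA, the RUNX motif, beginning 34 bases before the start on the strand of the gene. Gzmc (chr14:56234608-56234907, minus strand) and Xcl1 (chr1:164935473-164935772, minus strand) hold it on the opposite strand, 176 and 229 bases before the start, where it reads TAACCACA.
Nkg7: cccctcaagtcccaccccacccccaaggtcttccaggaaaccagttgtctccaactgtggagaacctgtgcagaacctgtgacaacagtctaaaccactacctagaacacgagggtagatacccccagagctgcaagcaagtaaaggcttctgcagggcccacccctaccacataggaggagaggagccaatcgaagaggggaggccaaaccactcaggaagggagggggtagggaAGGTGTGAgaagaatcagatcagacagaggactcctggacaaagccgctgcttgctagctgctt
Gzmb: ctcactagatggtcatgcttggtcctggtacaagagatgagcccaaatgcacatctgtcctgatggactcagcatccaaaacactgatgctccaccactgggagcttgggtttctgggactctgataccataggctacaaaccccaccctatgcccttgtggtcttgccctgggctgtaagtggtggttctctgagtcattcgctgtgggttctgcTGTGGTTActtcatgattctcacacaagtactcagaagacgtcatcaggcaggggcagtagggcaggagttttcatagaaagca
Gzmc: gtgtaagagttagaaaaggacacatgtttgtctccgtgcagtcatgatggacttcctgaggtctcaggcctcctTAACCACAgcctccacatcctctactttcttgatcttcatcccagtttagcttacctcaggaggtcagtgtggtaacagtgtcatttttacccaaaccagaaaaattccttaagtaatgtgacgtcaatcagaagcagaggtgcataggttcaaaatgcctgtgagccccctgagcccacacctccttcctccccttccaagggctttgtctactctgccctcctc
Xcl1: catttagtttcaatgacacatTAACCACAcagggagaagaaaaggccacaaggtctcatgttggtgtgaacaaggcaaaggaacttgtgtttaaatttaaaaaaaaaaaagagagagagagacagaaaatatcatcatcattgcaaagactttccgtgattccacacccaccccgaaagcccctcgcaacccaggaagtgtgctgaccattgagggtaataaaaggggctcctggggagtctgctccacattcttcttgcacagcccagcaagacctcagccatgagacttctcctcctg

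Both strands were searched. AGGTGTGA was found in 1.78% of the 394 windows that matched 319 of the 411 genes higher in NK cells, in 1.23% of windows of genes lower in NK cells, in 0.819% of windows of all tested genes and in 1.28% of all 32851 windows. TGTGGTTA was found in 1.52%, 0.176%, 0.546% and 0.752% of the same sets, which is 6 windows of the genes higher in NK cells. The shorter TGTGGT, which TGTGGTTA contains, was found in 15.2%, 12.0%, 12.8% and 16.8%. The counts of 6 and 7 windows are small, and a match describes letters in the window and not a bound site.

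Few cytokine genes were abundant enough to test. Of 9 tested, 3 were higher in NK cells, 2 were lower and 4 did not pass, with a median log2 difference of -0.26. Xcl1 (lymphotactin), which attracts XCR1-positive dendritic cells, stood at 1686, 1380 and 1323 CPM in NK cells and 125.8, 137.9 and 211.1 CPM in T cells (log2 3.26 ± 0.19, adjusted p = 1.75e-06). It was found in 86.8% of NK cells, 19.3% of T cells and 0.181% of background cells. Ccl4, a chemokine, stood at 394.8, 231.8 and 384.9 CPM in NK cells and 245.6, 49.4 and 49.3 CPM in T cells (log2 1.78 ± 0.34, adjusted p = 0.00446). Tgfb1 was higher by log2 1.12 ± 0.19 (adjusted p = 0.00256).

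The 2 lower members were Ltb and Ccl5. Ltb (lymphotoxin beta) stood at 82.6, 69.5 and 51.3 CPM in NK cells and 577.1, 243.9 and 335.3 CPM in T cells (log2 -2.45 ± 0.22, adjusted p = 2.77e-05). Ccl5 stood at 2544, 1543 and 1404 CPM in NK cells and 2516, 4569 and 3299 CPM in T cells, where the NK value of young PBS lay within the range of T cells (log2 -0.90 ± 0.24, adjusted p = 0.0230). Ifng, the signature cytokine of NK cells, stood at 251.6, 92.7 and 296.9 CPM in NK cells and 73.9, 126.6 and 86.8 CPM in T cells and did not pass (log2 1.05 ± 0.35, adjusted p = 0.0612), but it passed without the cells holding another type (log2 1.03, adjusted p = 0.00975). Il4, Il13 and Il17a, the cytokines of helper T cells, had no UMI in any NK cell. In T cells of young PBS, old PBS and old rMETRNL, Il4 had 89, 0 and 0 UMIs, Il13 had 37, 66 and 0, and Il17a had 9, 9 and 7.

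Receptors for cytokines separated the classes by the chain. Of 22 genes tested for cytokine receptors and JAK-STAT signalling, 3 were higher in NK cells and 9 were lower, with a median log2 difference of -0.62. Il2rb stood at 766.4, 862.7 and 711.1 CPM in NK cells and 337.5, 354.0 and 321.3 CPM in T cells (log2 1.23 ± 0.14, adjusted p = 0.000151). Il12rb2, which completes the interleukin 12 receptor, and Stat3 were higher by log2 1.78 ± 0.28 and 0.93 ± 0.15. Il7r, the receptor that sustains naive and memory T cells and many innate lymphoid cells, stood at 19.4, 7.73 and 3.67 CPM in NK cells and 375.4, 344.7 and 370.5 CPM in T cells (log2 -4.85 ± 0.29, adjusted p = 1.75e-06). Il21r, Il18r1, Il4ra, Stat5a, Stat5b and the feedback inhibitors Cish, Socs1 and Socs2 were lower by log2 differences of 0.70 to 1.36, while the shared gamma chain Il2rg, Jak1 and Stat4 did not pass.

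Transcription factors differed in both directions. Of 20 tested, 4 were higher in NK cells and 9 were lower. Irf8, a factor of the myeloid and NK lineages, stood at 1006, 1295 and 1122 CPM in NK cells and 99.9, 29.8 and 39.9 CPM in T cells (log2 4.47 ± 0.33, adjusted p = 5.75e-06). After thinning it was found in 74.2% of NK cells, 5.26% of T cells and 3.17% of background cells. Myb, Id2, which NK cells need to develop, and Runx3 were higher by log2 1.97 ± 0.20, 0.88 ± 0.14 and 0.68 ± 0.15. Bcl11b, the factor that commits cells to the T lineage, had 0 UMIs in NK cells and 155.8, 170.8 and 159.5 CPM in T cells, at least 78.6-fold lower in NK cells.

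Rora, Klf2, Id3, Lef1, Ets1, Gata3, Ikzf2 and Ikzf3 were also lower in NK cells. Rora stood at 74.8, 92.7 and 95.3 CPM in NK cells and 405.4, 332.4 and 363.5 CPM in T cells (log2 -2.07 ± 0.19, adjusted p = 3.17e-05). For Gata3, Ikzf2 and Ikzf3 the direction turned when T cells were limited to those with a Cd8 UMI, with log2 differences of 0.036, 1.04 and 0.0048. The T-box factors did not pass with all cells: Eomes stood at 185.8, 123.6 and 164.9 CPM in NK cells and 39.9, 151.3 and 63.3 CPM in T cells (log2 0.97 ± 0.36, adjusted p = 0.0878), and Tbx21 at 86.4, 69.5 and 55.0 against 24.0, 51.5 and 44.6 CPM (log2 0.88 ± 0.30, adjusted p = 0.0695). Without the cells holding another type both passed, Eomes at log2 0.89 (adjusted p = 0.0379) and Tbx21 at 0.85 (adjusted p = 0.0393). In old PBS the Eomes level of T cells lay above that of NK cells.

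**Figure D3:**
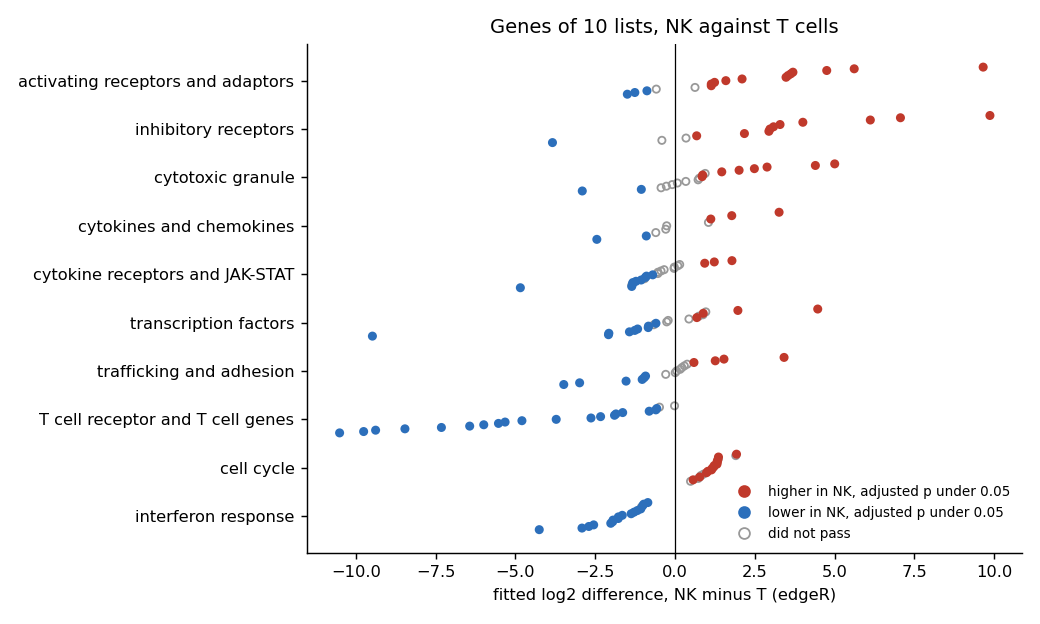
Fitted log2 differences of NK minus T cells for the tested genes of 10 lists, each point a gene, coloured where the adjusted p is under 0.05. Receptor and cell cycle genes lie mostly to the right (10 of 13 genes listed as inhibitory receptors and 14 of 20 cell cycle genes higher), T cell and interferon response genes to the left. Fitted values of genes at 0 in a class depend on the prior count.

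Homing receptors differed gene by gene. Of 17 tested trafficking and adhesion genes, 4 were higher and 6 were lower in NK cells, with a median log2 difference of 0.05. The integrin Itgax and the chemokine receptor Ccr2 were among the higher genes. Itgax stood at 73.5, 110.7 and 29.3 CPM in NK cells and 3.99, 8.23 and 9.38 CPM in T cells (log2 3.42 ± 0.40, adjusted p = 0.000181), so that the groups did not overlap, and without the cells holding another type the difference was 3.46. Ccr2 was higher by log2 0.59 ± 0.18 (adjusted p = 0.0454), a call lost with DESeq2 (adjusted p = 0.245), without the young PBS library (0.186), without the old PBS library (0.329), with Scrublet calls removed (0.0620) and without the cells holding another type (0.0691). S1pr1, which guides lymphocytes out of tissue, stood at 18.1, 10.3 and 25.7 CPM in NK cells and 197.7, 203.7 and 194.6 CPM in T cells (log2 -3.49 ± 0.26, adjusted p = 5.98e-06). Cxcr6, Cxcr3, Itgb7, Cd69 and S1pr4 were lower too, by log2 differences of 0.92 to 2.99. The NK cell form of this receptor family, S1pr5, had 8 UMIs in all NK cells and 0 in T cells, too few to test.

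Innate lymphoid cells of group 1 (ILC1) share Ncr1 and Klrb1c with NK cells and cannot be separated from them by the rule. Eomes, which marks NK cells, was found in 47 of 71, 18 of 24 and 14 of 26 cells. Itga2 (CD49b), of NK cells, was found in 22, 5 and 12 cells, and Itga1 (CD49a), of tissue-resident ILC1, in 11, 14 and 5 cells. After thinning Itga1 was found in 3 of 70, 4 of 24 and 2 of 26 NK cells, with exact intervals of 0.893 to 12.0%, 4.74 to 37.4% and 0.946 to 25.1% that overlap. Before thinning it was also found in 40.8% of the Pdgfra-positive cells, so that these give no background level for Itga1. Of 10 tested genes of ILC1 and other innate lymphoid cells, 0 were higher in NK cells than in T cells and 7 were lower, namely Il7r, Cxcr6, Ltb, Il1rl1, Gata3, Tmem176a and Tmem176b. Against T cells with a Cd8 UMI the last 3 turned, at log2 0.036, 0.77 and 0.64. Itga1 (log2 0.38), Tnfsf10 (0.76) and Areg (-0.60) did not pass. Cxcr6 stood at 6.45, 74.7 and 14.7 CPM in NK cells, from 5, 29 and 4 UMIs. T cells held UMIs of the 7 lower genes themselves, so that this comparison cannot tell whether the chosen cells include ILC1.

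T cell genes served as the reverse check. Of 21 tested, 19 were lower in NK cells and Zap70 and Skap1 did not pass, with a median log2 difference of -3.72. Cd8b1, Cd5, Cd8a, Themis and Foxp3 had 0 UMIs in the 121 NK cells and were at least 188-fold, 88.7-fold, 84.2-fold, 38.5-fold and 15.8-fold lower than in T cells. Absence of Cd3 was a condition of the rule, and these genes are known to be expressed with it. Zap70, a kinase that works in both classes, stood at 82.6, 64.4 and 69.6 CPM in NK cells and 77.9, 73.1 and 70.4 CPM in T cells (log2 -0.014 ± 0.21, adjusted p = 0.977). Trbc1 and Trbc2 were lower by log2 0.60 ± 0.15 and 1.90 ± 0.15, with Trbc1 still at 254.2, 332.2 and 304.2 CPM in NK cells.

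Cell cycle genes were higher in NK cells than in T cells. Of 20 tested, 14 were higher, 0 were lower and 6 did not pass, with a median log2 difference of 1.19. Top2a, the topoisomerase of dividing cells, stood at 389.6, 620.6 and 296.9 CPM in NK cells and 97.9, 224.3 and 218.1 CPM in T cells (log2 1.34 ± 0.23, adjusted p = 0.00238). Stmn1 and Tubb5, of the dividing cytoskeleton, were higher by log2 1.32 ± 0.22 and 0.78 ± 0.17, and the replication genes Mcm6 and Pclaf by 0.99 ± 0.23 and 1.36 ± 0.23. Pcna, Mcm5, Cenpe, Cenpf, Ube2c and Nusap1 did not pass.

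Counted per cell, cycling was read from cells with at least 2 UMIs over 10 cycling genes after thinning to 2000 UMIs. In NK cells the share was 18.6% for young PBS (13 of 70, 95% interval 10.3 to 29.7), 41.7% for old PBS (10 of 24, 22.1 to 63.4) and 26.9% for old rMETRNL (7 of 26, 11.6 to 47.8). These 3 intervals overlap. T cells stood at 8.33%, 8.82% and 15.4%, and Pdgfra-positive cells, which themselves divide after injury, at 9.67%, 7.23% and 10.8%. Before thinning the NK shares were 38%, 50% and 42.3%, and the T shares 13.6%, 22.8% and 21.1%. In old PBS the NK interval lay above that of T cells at matched depth, and in the other libraries the intervals of the classes overlapped.

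**Figure D4:**
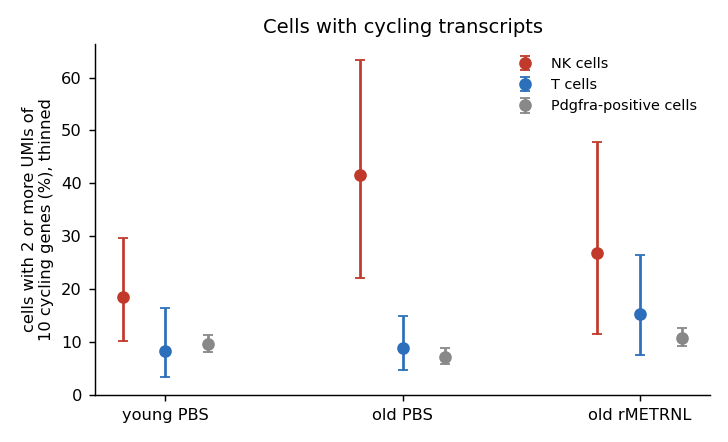
Percentage of NK, T and Pdgfra-positive stromal (FAP) cells with at least 2 UMIs of 10 cycling genes after thinning to 2000 UMIs, by library, with 95% exact binomial intervals. NK cells lie at 18.6%, 41.7% and 26.9%, above the T cells of the same library in each case, with overlapping intervals in young PBS and old rMETRNL.

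Interferon response genes moved the other way as a list. Of 18 tested, 17 were lower in NK cells and Usp18 did not pass, with a median log2 difference of -1.71. Ifi27l2a stood at 149.7, 46.4 and 44.0 CPM in NK cells and 2097, 958.0 and 1574 CPM in T cells (log2 -4.25 ± 0.22). Isg15, a ubiquitin-like interferon product, stood at 73.5, 51.5 and 58.7 CPM in NK cells and 279.6, 121.4 and 262.6 CPM in T cells (log2 -1.78 ± 0.21, adjusted p = 0.000178). The GTPases Gbp2 and Igtp were lower by log2 2.01 ± 0.22 and 1.95 ± 0.23. Of 16 genes of the immediate early and dissociation response, 0 were higher and 7 were lower, among them Egr1, an immediate early factor (log2 -1.47 ± 0.33), and the heat shock gene Hspa1a (log2 -1.24 ± 0.19), and the part of dissociation in the differences between classes was not tested.

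Outside the lists, several of the genes with the largest differences are not NK receptors. Car2 (carbonic anhydrase 2), an enzyme of acid-base balance, stood at 441.2, 579.4 and 414.2 CPM in NK cells and 0, 6.17 and 11.7 CPM in T cells (log2 6.41 ± 0.36, adjusted p = 1.75e-06). Vegfa, the vascular growth factor, stood at 149.7, 77.3 and 186.9 CPM in NK cells and 0, 2.06 and 2.35 CPM in T cells (log2 6.11 ± 0.43, adjusted p = 4.22e-06). Both genes were far above T cells in every library. Nrgn, Cited4 and Cxxc5 were higher by log2 5.50 ± 0.53, 5.27 ± 0.59 and 4.40 ± 0.54. Tmsb15a, of the actin-binding thymosin family, had 0 UMIs in T cells and was at least 29.5-fold higher. Among the lower genes was the costimulatory receptor Tnfrsf4 (OX40), by log2 7.12 ± 0.41. The genes Ctla4, an inhibitory checkpoint receptor, and Cd6, members of the T cell list, were lower by 5.53 ± 0.40 and 6.43 ± 0.41.

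Markers of macrophages and dendritic cells were present in the summed NK cells. Cd74, the MHC class II invariant chain, stood at 1086 CPM in NK cells of young PBS, above Prf1 at 388.3 CPM, but 1 cell held 55.5% of its UMIs there and 29 of 71 cells held any. Macrophage markers summed to 1524, 1514 and 802.7 CPM in NK cells and 1118, 1296 and 3658 CPM in T cells. Of 9 tested, C1qa was lower in NK cells and none was higher. Spp1 held much of the old PBS sum in NK cells, at 865.3 CPM against 85.2 CPM in young PBS. Of 10 macrophage markers with at least 20 UMIs in NK cells, 9 were lower in old PBS than in young PBS and only Spp1 was higher. Their median log2 ratio was -1.11. Dendritic markers summed to 2219, 350.2 and 135.6 CPM in NK cells and 2061, 733.7 and 206.4 CPM in T cells, with 0 of 3 tested genes called. One of them, H2-Ab1, differed by log2 -0.19 (adjusted p = 0.606), but was higher in NK cells by 1.29 (adjusted p = 0.0281) with cells of high doublet score removed, and lower by log2 2.35 (adjusted p = 0.00587) against T cells with at least 1 Cd3 UMI. Endothelial markers summed to 192.2, 59.2 and 66.0 CPM, stromal markers to 163.9, 146.8 and 168.6 CPM and B cell markers to 58.1, 46.4 and 69.6 CPM. Neutrophil markers summed to at most 2.58 CPM and muscle markers to at most 44.0 CPM, and 4 of 6 neutrophil markers and 4 of 6 B cell markers had no UMI in any NK cell. Dendritic and endothelial markers were thus highest in young PBS, in both classes for dendritic ones, and their part in the comparisons between libraries was not tested.

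Between libraries, NK cells were compared with no test, by ratios of CPM with 95% exact intervals for counting error. Of 1941 genes with at least 100 UMIs in NK cells, 7 were over 2-fold higher in old PBS than in young PBS (0.361%) and 26 were over 2-fold lower (1.34%). For old rMETRNL over old PBS, 24 were over 2-fold higher (1.24%) and 48 over 2-fold lower (2.47%). The medians over 6317 genes with at least 20 UMIs were log2 -0.0143 for age and -0.0152 for treatment. The contrasts share the old PBS library, so that a high or low value there enters both.

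As a list, granule genes centred near no change. The median log2 ratio over 19 granule genes was 0.044 for age and 0.0023 for treatment, with 10 genes higher and 9 lower in each, and neither median kept its sign under every alternative. Without the cells holding another type the medians were -0.094 and 0.11. Gzma was at 1.04 times its young level in old PBS (0.983 to 1.10) and at 0.514 times its old PBS level in old rMETRNL (0.471 to 0.559). Gzmb went the other way, at 0.691 times (0.611 to 0.781) and then 1.71 times (1.48 to 1.98). Prf1 stood at 0.557 times its young level in old PBS (0.432 to 0.712) and at 1.17 times its old PBS level in old rMETRNL (0.838 to 1.63). Of the 12 granule genes with at least 100 UMIs, 1 passed 2-fold, Ctsc (cathepsin C, which activates granzymes) at 0.499 for age.

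Among receptors, several Ly49 genes differed between libraries by more than counting error. The median log2 ratio was -0.14 for age and -0.39 for treatment over 18 genes listed as activating receptors and adaptors. It was 0.20 and -0.18 over 12 genes listed as inhibitory receptors. Klra1 stood at 38.7, 131.3 and 113.6 CPM, 3.39 times higher in old PBS than in young PBS (2.12 to 5.52), or 2.24 (1.31 to 3.83) with the gate of at least 3 UMIs, and came from 9 of 71, 6 of 24 and 7 of 26 cells. Klra7 stood at 230.9, 113.3 and 285.9 CPM, with ratios of 0.491 (0.345 to 0.686) for age and 2.52 (1.72 to 3.74) for treatment. Klra3 stood at 123.9, 167.4 and 40.3 CPM, with a treatment ratio of 0.241 (0.115 to 0.460). UMIs of Klra7 were found in 7 of 24 and 13 of 26 cells of old PBS and old rMETRNL, and those of Klra3 in 12 and 4. These ratios thus rest on few cells, and the largest share of these genes' UMIs held by 1 cell was 38.6%, of Klra7 in old PBS.

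The UMIs of Ifng lay mostly in single cells. The treatment ratio of Ifng was 3.20 (2.14 to 4.88), but in old PBS 1 cell held 86.1% of its UMIs and in old rMETRNL 1 cell held 84.0%, with UMIs in 4 of 24 and 9 of 26 cells. With the cells of high doublet score removed, 1 of them from old PBS, the ratio was 21.3 (8.78 to 67.5). Ccl3, a chemokine for monocytes, stood at 83.9 and 56.7 CPM in young PBS and old PBS and at 0 in old rMETRNL, from 65, 22 and 0 UMIs. Ccl1 was also at 0 in old rMETRNL. In T cells both genes were lowest in old rMETRNL too, with Ccl3 at 12.0, 15.4 and 2.35 CPM and Ccl1 at 173.7, 34.0 and 0 CPM. Areg, an epidermal growth factor family member that acts in muscle repair, stood at 64.5, 0 and 117.3 CPM, with UMIs in 5, 0 and 2 cells.

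Cell cycle genes were mostly higher in old PBS than in young PBS and mostly lower in old rMETRNL than in old PBS. The median log2 ratio over 21 genes was 0.46 for age, with 17 higher and 4 lower, and -1.06 for treatment, with 3 higher and 18 lower. Without the cells holding another type the treatment median was -1.23. Of the 15 genes with at least 100 UMIs, 8 were over 2-fold lower in old rMETRNL than in old PBS (Mki67, Top2a, Birc5, Cdk1, Ube2c, Nusap1, Rrm2 and Tyms). Ube2c, of the mitotic ubiquitin machinery, stood at 56.8, 177.7 and 40.3 CPM, a treatment ratio of 0.227 (0.108 to 0.432), from 15, 8 and 4 cells. Mki67 stood at 331.6, 468.7 and 175.9 CPM, a treatment ratio of 0.375 (0.267 to 0.518). In the T cells of the same libraries the list medians were 1.20 for age and -0.37 for treatment. NK cells of old PBS were also the deepest by median UMIs, and the part of depth in these levels was not tested. The thinned shares of cycling cells in old PBS and old rMETRNL, at matched depth, overlapped in their intervals.

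**Figure D5:**
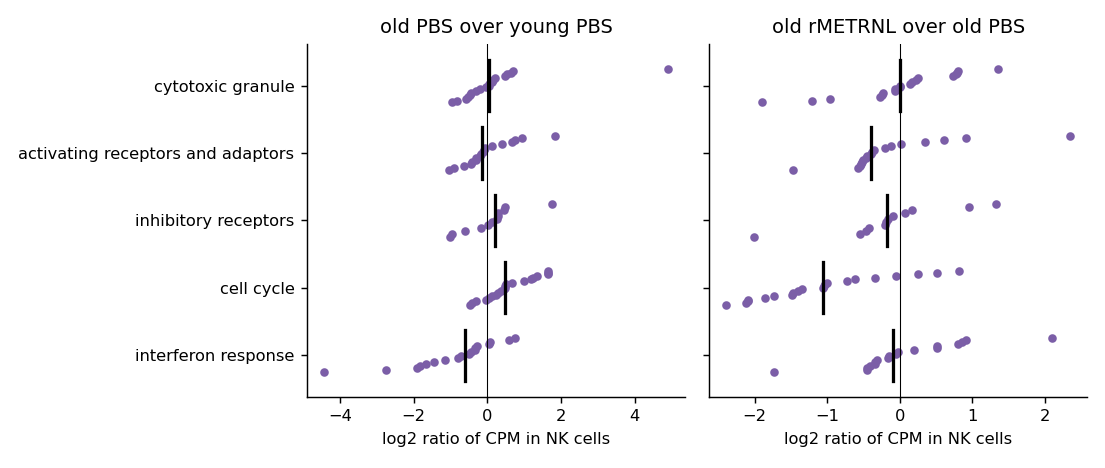
Log2 ratios of CPM in NK cells for genes of 5 lists, each point a gene and each bar the list median, for old PBS over young PBS (left) and old rMETRNL over old PBS (right). Cell cycle genes lie mostly above 0 on the left (median 0.46) and below 0 on the right (median -1.06), while granule genes centre near 0 in both.

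Interferon response genes were mostly lower in old PBS than in young PBS. The median log2 ratio over 18 genes was -0.60 for age, with 4 higher and 14 lower, and -0.10 for treatment, with 7 higher and 11 lower. Without the 8 cells that held another cell type the medians were -0.27 and 0.017. Over all 7 alternatives the age median stayed below 0, from -0.77 with per-cell means to -0.19 with the gate of at least 3 UMIs. The treatment median had no stable sign, at 0.42 with the gate of at least 1 UMI and 0.49 with per-cell means. Ifitm3, a membrane restriction factor, stood at 252.9, 69.5 and 62.3 CPM, an age ratio of 0.275 (0.177 to 0.413). Ifi27l2a stood at 149.7, 46.4 and 44.0 CPM, an age ratio of 0.310 (0.177 to 0.511), and in young PBS 1 cell held 38.8% of its UMIs. In T cells the list medians were -0.83 for age and 0.77 for treatment.

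Spp1 (osteopontin), a secreted matrix protein abundant in macrophages of injured muscle, gave the highest age ratio. It stood at 85.2, 865.3 and 121.0 CPM, 10.2 times higher in old PBS than in young PBS (7.79 to 13.4) and 0.140 times as high in old rMETRNL as in old PBS (0.0947 to 0.2). UMIs were found in 21 of 71, 14 of 24 and 15 of 26 cells, and 1 cell of old PBS held 32.7% of that library's UMIs. Without the 8 cells that held another type, the ratios were 4.77 (3.41 to 6.76) and 0.337 (0.222 to 0.499), and with the gate of at least 1 UMI the age ratio was 5.03 (4.11 to 6.18). In T cells the treatment ratio of Spp1 was 13.6 (10.8 to 17.5). Spp1 is a member of the macrophage list whose summed levels stand above and by which cells were left out, so that its shift without them follows in part from that choice. Of the 10 list members with at least 20 UMIs in NK cells, 9 were lower in old PBS than in young PBS and Spp1 alone was higher. For treatment 4 were higher and 6 lower. The part of macrophage RNA in the ratios of Spp1 was not tested.

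The genes with the lowest age ratios are not known as NK genes. Edn1 (endothelin 1) stood at 129.0 CPM in young PBS and at 0 in the old libraries, and 99.0% of its UMIs came from 1 cell. Igfbp7, Fabp4, H2-Aa and H2-Eb1, genes of endothelial or antigen-presenting cells, had age ratios of 0.0857, 0.153, 0.134 and 0.130, and in young PBS 1 cell held 47.2%, 65.6%, 59.6% and 54.4% of their UMIs. Without the 8 cells that held another type, the ratios of Igfbp7, Fabp4 and H2-Aa were 1.57 (0.495 to 4.72), 2.01 (0.859 to 4.71) and 1.48 (0.688 to 3.12), each in the other direction with an interval that included 1. H2-Aa is one of the markers by which those cells were left out, so that its shift follows in part from that choice. Without them the ratio of H2-Eb1 was 0.612 (0.222 to 1.47), still below 1, with an interval that also included 1. With cells of high doublet score removed H2-Aa, H2-Eb1 and Igfbp7 stood at 0.340, 0.290 and 0.139, with the gate of at least 3 UMIs Fabp4 and Igfbp7 at 0.426 and 0.153, and with the gate of at least 1 UMI Igfbp7 at 1.70.

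The remaining genes named by size have general cell functions. Furin, a protease that activates growth factors, stood at 54.2, 121.0 and 44.0 CPM, an age ratio of 2.23 (1.44 to 3.47), with 42.6% of its old PBS UMIs in 1 cell. Errfi1, an inhibitor of epidermal growth factor receptor signalling, stood at 64.5, 128.8 and 25.7 CPM, a treatment ratio of 0.199 (0.0762 to 0.442), with UMIs in 27 of 71, 18 of 24 and 5 of 26 cells. Gnl3 and Nolc1, both nucleolar proteins, had treatment ratios of 3.6 (2.08 to 6.48) and 3.01 (1.98 to 4.68), and that of Gnl3 was 1.58 (1.05 to 2.40) with the gate of at least 1 UMI. Tob2, an antiproliferative factor, and Ppid, a cyclophilin, had treatment ratios of 3.56 (2.02 to 6.53) and 3 (1.70 to 5.48), and that of Tob2 was 5.57 (2.77 to 12.4) without the cells holding another type. For these 4 genes the young PBS level, at 72.3, 149.7, 134.2 and 77.4 CPM, lay between the old PBS and the old rMETRNL levels.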

How the data were processed

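Single-cell RNA was measured in 3 libraries of 1 group each (old mice with rMETRNL, old or young mice with PBS). The authors aligned reads to mm10 with Cell Ranger and deposited raw counts, whole-number UMIs per gene and barcode, unfiltered for cell type. The submitters' processing notes name Cell Ranger 5.0.0 and 3.1.0, and the file headers name the former. Gene positions came from the GENCODE annotation of GRCm38, which matched 32235 of 32285 features, and promoters from RefSeq tables of GRCm38.p6.

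The cell filter (500 genes or more, mitochondrial share under 10%) and the classes by UMIs of named genes are those given in the results. Counts were summed per library and class, filtered (filterByExpr), scaled (TMM) and tested with edgeR 4.0.16 (limma 3.58.1, R 4.3.3), library as a block, 2 residual degrees of freedom, Benjamini-Hochberg adjusted p under 0.05. Each library gave both classes, so the block follows from the design. DESeq2 1.42.0 was an alternative. The p-values measure only the spread between these sums. Shares and ratios have 95% exact intervals (SciPy 1.17.1, Python 3.11.15). A floor of 3 counts over the class gave "at least" folds. Log2 ratios between libraries had 0.5 added to each count. Thinning drew 2000 UMIs per cell, and shallower cells were left out (1 NK and 10 T cells). Scrublet ran in scanpy 1.11.5, with its highest scores at 0.8% per 1000 barcodes taken where its own threshold called under 0.5% of cells. The scripts were tested on simulated data.

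Named genes were the members of 20 lists, the 15 genes with the largest differences in each direction of NK against T cells (adjusted p under 0.05, same direction in 3 of 3 libraries, at least 50 UMIs) and the 5 with the largest ratios in each direction of each contrast (at least 100 UMIs). Some list members count in the totals but are not reported here by name. Members and lists were chosen with earlier results of these data known. Alternatives covered cell filters, gates, doublets, scaling, tool, count filter, block and libraries left out.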

Additional observations from a re-analysis of the deposited data

Results flagged for a closer look

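Effects of NK and T cells in opposite directions under the same contrast are given here as values. The search covered cell shares, cycling shares, the cell cycle, interferon and granule list medians, and genes named for the size of their ratios. It is not a full set. Gzma, not searched by itself, stood at 5194 and 2668 CPM in NK cells of old PBS and old rMETRNL. In T cells it stood at 134.8 and 497.1 CPM. With 1 library per group, none of these differences between the classes was tested. The share of kept cells in old PBS was 0.349 times that of young PBS for NK cells and 1.59 times for T cells. The thinned share of cycling cells in old rMETRNL minus that in old PBS was -14.75 percentage points for NK cells and 6.56 for T cells. The intervals of old PBS and old rMETRNL overlapped in both classes, at 22.1 to 63.4% and 11.6 to 47.8% for NK cells and 4.64 to 14.9% and 7.63 to 26.5% for T cells, and the median log2 treatment ratio of the cell cycle list was below 0 in both, at -1.06 and -0.37. For age, Klra1 had a ratio of 3.39 in NK cells, or 2.24 with the gate of at least 3 UMIs. In T cells its ratio was 0.229 (0.0515 to 0.821), from only 9 UMIs in young PBS and 4 in old PBS. Furin had age ratios of 2.23 in NK cells and 0.738 in T cells. For treatment, Ifng had a ratio of 3.20 in NK cells and 0.686 in T cells, with most NK UMIs of each old library in 1 cell. Spp1 had treatment ratios of 0.140 in NK cells, or 0.337 without the cells holding another type, and 13.6 in T cells. Those of Ube2c were 0.227 in NK cells and 2.56 in T cells.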

How the results depend on the processing

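The NK share ratio for age kept its direction under all 7 alternatives, at 0.313 to 0.374 under 6 of them and 0.103 with cells thinned to 2000 UMIs before the gate. None of the 7 relaxed the genes that the rule required to be absent. The treatment ratio ranged from 0.883 to 1.11 under 6 and was 3.69 with that thinning, which left 3 cells in old PBS. Genes higher and lower in NK than in T cells (411 and 535) numbered 126 and 203 with DESeq2, 112 and 159 against T cells with a Cd8 UMI, and, with each library left out, 124 to 477 and 216 to 645. Under the other settings they numbered 380 to 553 and 512 to 743, with 412 and 512 for no replicate block, that is without the pairing of sums by library. All 946 called genes kept their sign with DESeq2, where 329 passed. Against T cells with a Cd8 UMI, 11 of 795 changed sign, among them Gata3 (log2 0.036), Ikzf2 (1.04), Ikzf3 (0.0048), Klrc1 (-0.033), Tmem176a (0.77) and Tmem176b (0.64). H2-Ab1 turned from -0.19, not called, to 1.29 with cells of high doublet score removed, and was then called (adjusted p = 0.0281).

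The granule median for age (log2 0.044) was -0.094 without cells holding another type, -0.060 for the mean of per-cell CPM and -0.21 for genes with at least 50 UMIs. For treatment (0.0023) it was -0.34 and -0.15 with gates of at least 1 and 3 UMIs, 0.11 without cells holding another type, 0.25 for per-cell means and 0.14 for genes with at least 50 UMIs. Age ratios turned for Igfbp7 (1.70 with the gate of at least 1 UMI, 1.57 without cells holding another type), H2-Aa (1.48) and Fabp4 (2.01), the latter 2 without those cells, of which young PBS had 5. The cause of the other changes was not tested. The settings without cells holding another type, and all settings of the cell cycle and interferon medians, of the cycling share and of the age and treatment ratios of single genes, were chosen after seeing the data. The cell cycle medians kept their sign under all 7 alternatives, from 0.25 to 0.67 for age and -1.40 to -0.94 for treatment. The depth of 24 to 71 NK cells per library limits every comparison between libraries.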
